A study of Mus musculus with 68 samples.

Results

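The 10 genes followed here were Adnp, its paralogue Adnp2, and 8 genes whose proteins are known to bind ADNP or to share its chromatin assemblies. They were taken by symbol, and all 10 were found among the 18088 genes of the deposited table and passed the minimum mean value of 5. The data are poly(A) RNA profiles of prefrontal cortex, 1 for each of 68 C57BL/6J mice of postnatal day 25. The mice carried 1 mutated copy of Adnp (heterozygous, HT, n = 35) or none (wild type, WT, n = 33), in both sexes. They had taken in vehicle (16 HT and 15 WT), fluoxetine, a serotonin reuptake inhibitor (10 HT and 10 WT), or lithium, a mood stabiliser (9 HT and 8 WT), from day 3 to day 24 in the milk of the mother. The labels name neither the mutant allele nor the litters, so it is not known here which exons the allele lacks or which pups shared a mother. Gene counts do not show which allele a read came from, so HT and WT below mean the libraries so labelled. P-values measure the spread between these samples, with each pup counted as independent. The drugs came through the mother, so p-values of drug comparisons may be too small where pups shared a mother.

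ADNP is a zinc finger and homeodomain protein that binds DNA and is mutated in a syndromic form of autism and intellectual disability. With the remodelling ATPase CHD4 and the heterochromatin proteins HP1 beta and gamma, encoded by Cbx1 and Cbx3, it forms the ChAHP complex, which limits chromatin accessibility and competes with CTCF at repeat-derived sites. Cbx5 encodes HP1 alpha, Pogz encodes a zinc finger protein that binds HP1 and is itself an autism gene, and Smarca4, Arid1a and Smarcc2 encode the ATPase and 2 further subunits of the BAF (SWI/SNF) remodellers, with which ADNP also associates.

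Values are read counts divided by a size factor per library (normalized counts), and differences are on the log2(value + 1) scale from 1 limma fit of all 12 genotype, treatment and sex groups. A gene passed at a Benjamini-Hochberg adjusted p under 0.05 over the 17922 genes tested. Libraries held 22.4M to 37.5M reads (M for mega). The libraries were divided into 3 sets that the labels do not name, by the levels of 361 pseudogenes. The number of sets was given to the method and not estimated. The fluoxetine libraries all lay in set 1, beside 8 from HT mice on vehicle. The lithium libraries all lay in set 2, beside 6 HT and 5 WT on vehicle. The remaining 12, on vehicle, were 10 from WT and 2 from HT mice and made up set 3. Values within sets are given beside the results that passed, where a set holds both sides. All 10 markers of cortical excitatory neurons were measured, led by Slc17a7 at a mean of 51780. The summed level of 8 olfactory bulb markers ranged from 1931 to 31439 (median 3492).

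Adnp and Chd4 were the members whose own values passed between genotypes, so their promoters are shown. The 250 bases before the RefSeq start site (GRCm38.p6) lie at chr2:168207113-168207362 on the minus strand for Adnp and at chr6:125095731-125095980 on the plus strand for Chd4. Capitals mark the GC box GGGCGG on either strand.
Adnp promoter: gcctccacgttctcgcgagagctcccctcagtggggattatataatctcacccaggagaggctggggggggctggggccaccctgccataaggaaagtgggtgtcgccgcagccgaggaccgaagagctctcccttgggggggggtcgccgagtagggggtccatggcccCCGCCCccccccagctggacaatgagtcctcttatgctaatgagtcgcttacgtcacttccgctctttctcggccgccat
Chd4 promoter: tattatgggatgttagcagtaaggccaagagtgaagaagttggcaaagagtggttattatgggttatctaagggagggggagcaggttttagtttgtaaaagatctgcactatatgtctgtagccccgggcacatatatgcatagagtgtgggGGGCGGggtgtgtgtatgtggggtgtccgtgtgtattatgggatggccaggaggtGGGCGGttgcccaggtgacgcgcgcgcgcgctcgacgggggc
Promoters were matched for 9 of the 10 members. Searched on both strands were 7 motifs: the GC box GGGCGG, the CCAAT box, the ETS site CCGGAAG, the CRE site TGACGTCA, the E-box CACGTG, the YY1 site AAGATGGC and the TATA box TATAAA, with 0 overlapping matches. The GC box was present in 8 of the 9 members and in 32.7% of 32851 promoter windows of the same length. The CCAAT box was present in 2 of the 9 and in 33.9% of all windows, and the E-box in 1 of the 9 and 6.02% of all. The other 4 motifs were present in 0 of the 9. GC content was 64.0% for Adnp and 54.0% for Chd4. A match describes these letters only.

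The members differed widely in level. Per kilobase of merged exon, the mean over 68 libraries was highest for Smarcc2 at 1479 ± 99.3 (SD) normalized counts per kb, a scaffold subunit of BAF, and lowest for Adnp2 at 158 ± 7.32. Smarca4 stood at 796, Chd4 at 725, Cbx5 at 677, Cbx3 at 501, Arid1a at 371, Adnp at 369, Cbx1 at 227 and Pogz at 190 normalized counts per kb. Smarcc2 lay above Smarca4 with no overlap between libraries. Arid1a and Adnp could not be ordered, since Arid1a was the higher in only 28 of 68 libraries. The Adnp value rests on its own row alone. Gm20716, a gene described below that shares most exonic bases of Adnp, held a mean of 2298. The place of Adnp is therefore uncertain. The remaining neighbours kept their order in 54 to 68 of 68 libraries. With the length of the longest transcript in place of merged exons, Cbx3 moved from the fifth place to the second. The fewest reads for any member in 1 library were 615, for Adnp2.

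Adnp varied most from library to library. After the 12 group means were removed, its SD was 0.21 on the log2 scale, against 0.07 to 0.15 for the other 9 members and a median of 0.17 over all genes. Adnp lies at 168180986 to 168207112 on the minus strand of chromosome 2 (GRCm38), and it is the only member whose exons overlap those of another gene of the table apart from short RNAs. That gene, Gm20716, is an annotated transcript that joins 9 exons of the neighbouring gene Dpm1, a subunit of dolichol-phosphate mannose synthase, to the last 3 exons of Adnp. Those 3 exons hold 4393 of the 5350 exonic bases of Adnp. Counted by words of 31 bases, 81.2% of the Adnp transcript sequence also occurred in Gm20716, whereas the other 9 members shared 0 to 1% with other genes of the table. How reads from the shared exons were assigned to the 2 genes is not given in the sources used here, so each value alone is uncertain. The 2 genes moved against each other. Over the 68 libraries the correlation of their log2 residuals was -0.75, and none of the 17921 genes compared with Adnp had a lower value. Their sum varied far less than either, with a residual SD of 0.06.

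By its own row, Adnp was higher in HT than in WT cortex. Under vehicle the values ran from 1730 to 2845 (median 2334) in HT and from 1077 to 2290 (median 1978) in WT. Under fluoxetine they ran from 1492 to 2201 (median 1911) in HT and from 1202 to 1944 (median 1488) in WT. Under lithium they ran from 2079 to 2553 (median 2340) in HT and from 1647 to 2182 (median 1998) in WT. The genotypes overlapped in each treatment, and in females under lithium they did not: the 4 HT libraries stood at 2297, 2340, 2407 and 2449 and the 5 WT libraries at 1815 to 2182. Averaged over the treatments, the difference was 0.30 (SE 0.05, adjusted p = 1.7e-05 by limma), a 1.23-fold higher value. It was 0.32 under vehicle (adjusted p = 0.0021), 0.32 under fluoxetine (adjusted p = 0.039) and 0.25 under lithium (adjusted p = 0.19). Of the 10 members, 2 passed as higher and 0 as lower over all treatments, where 7.43% of all genes passed, and the same counts held under vehicle (15.0% of all genes) and under fluoxetine (1.98%). Under lithium 0 of 10 passed (2.51% of all genes), with 4 members at an unadjusted p under 0.05. Within library sets the difference was 0.28 (adjusted p = 1.5e-05), and in set 2 alone the vehicle difference was 0.19 (adjusted p = 0.88). Under fluoxetine the Adnp call held in 9 of the 20 fits that left out 1 library, with adjusted p up to 0.11.

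Gm20716 showed the opposite. It ranged from 1179 to 2943 (median 2025) over the 35 HT libraries and from 1961 to 3147 (median 2563) over the 33 WT libraries. The difference between HT and WT was -0.36 on the log2 scale (SE 0.05, adjusted p = 8.2e-08 by limma). Within sets, HT stood wholly below WT for Gm20716 in 5 of the 7 strata of 1 treatment, sex and set that hold both genotypes. Some strata are small, such as vehicle males of set 2 with 3 HT and 2 WT libraries. The share of all genes with such gaps, here and for the other genes, was not worked out. Dpm1, whose 5′ exons Gm20716 shares, was higher in HT, by 0.28 (SE 0.04, adjusted p = 1.2e-07). Its values ran from 502 to 883 (median 615) in HT and from 398 to 721 (median 509) in WT, so the genotypes overlapped. The Dpm1 difference was 0.13 under vehicle (adjusted p = 0.10 by limma), 0.30 under fluoxetine (adjusted p = 0.0044) and 0.40 under lithium (adjusted p = 4.9e-04), and within library sets it was 0.33 (adjusted p = 4.4e-11). Adnp made up 33.6 to 70.7% of the sum of Adnp and Gm20716 in HT and 27.5 to 53.9% in WT.

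Added together, Adnp and Gm20716 were slightly lower in HT. The sum ran from 3887 to 4569 (median 4178) in HT and from 3917 to 4643 (median 4336) in WT, and the genotypes overlapped widely. The difference was -0.055 (SE 0.02, 95% interval -0.09 to -0.02, adjusted p = 0.020 by limma), and it passed in all 68 fits that left out 1 library. It was -0.04 under vehicle (adjusted p = 0.27), -0.02 under fluoxetine (adjusted p = 0.84) and -0.11 under lithium (adjusted p = 0.0497). Within library sets it was -0.08 (adjusted p = 0.0015), with HT wholly below WT in 4 of the 7 strata, all in set 2. With Dpm1 added as well, the sum of the 3 genes differed by -0.02 (95% interval -0.05 to 0.01, adjusted p = 0.61). The direction of the Adnp difference thus turned with the unit counted: higher for the row named Adnp, and lower or near 0 for the sums. The sums were chosen after the values were seen.

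**Figure D1:**
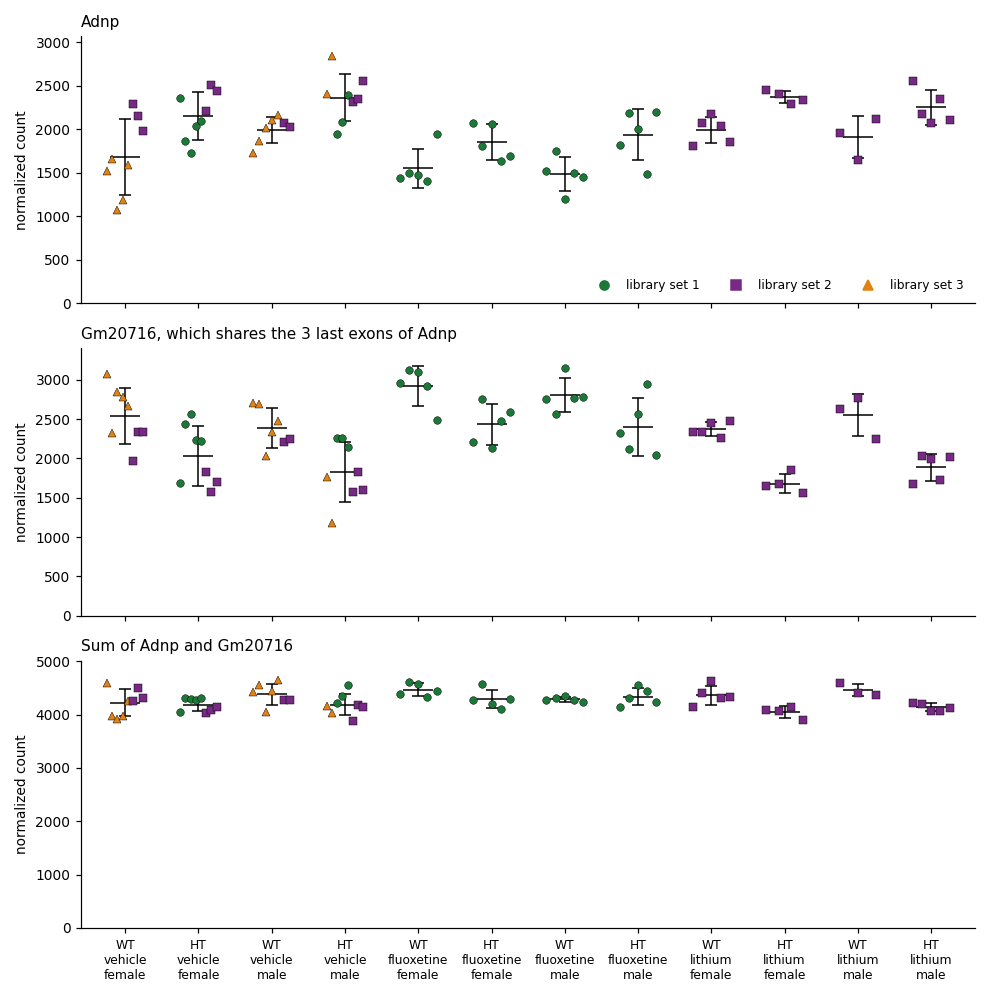
Normalized counts (linear axes from 0) of Adnp, of Gm20716 and of their sum in each of the 68 libraries by genotype, treatment and sex; points are libraries, colours and shapes the 3 library sets, and bars the group mean ± SD. Adnp was higher and Gm20716 lower in HT, with differences of 0.30 and -0.36 on the log2 scale, while the sum stayed between 3887 and 4643 in every library.

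Chd4, the ATPase of NuRD and of ChAHP, was higher in HT, and 0.508% of its transcript sequence occurred in other genes. It lies at 125095981 to 125130591 on the plus strand of chromosome 6 (GRCm38). Under vehicle the normalized counts ran from 5525 to 7034 (median 5967) in HT and from 5116 to 6361 (median 5379) in WT. Under fluoxetine they ran from 5863 to 6631 (median 6202) in HT and from 5116 to 6341 (median 5508) in WT. Under lithium they ran from 5588 to 6289 (median 6061) in HT and from 4993 to 5688 (median 5442) in WT. The ranges overlapped in each treatment, and the HT medians were the higher in all 3. The difference over all treatments was 0.14 (SE 0.02, adjusted p = 6.3e-06 by limma), a 1.10-fold higher value, and it passed in each of the 68 fits without 1 library. It was 0.12 under vehicle (adjusted p = 0.010), 0.15 under fluoxetine (adjusted p = 0.022) and 0.14 under lithium (adjusted p = 0.068). Under fluoxetine it passed in 18 of 20 fits without 1 library.

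Within library sets the Chd4 difference was 0.12 (SE 0.02, adjusted p = 4.2e-04 by limma), where 5.42% of all genes passed and Adnp and Chd4 were the 2 members that did. HT was the higher in 7 of the 7 strata, by 0.00 to 0.16, with the smallest in vehicle males of set 3. HT stood wholly above WT in 2 strata, lithium females and vehicle males of set 2. Such gaps also occurred in members that did not pass. HT stood wholly above WT in 1 stratum each for Adnp2, Cbx3, Cbx5 and Smarcc2, and wholly below in 1 for Arid1a. In set 2 alone the vehicle difference was 0.12 (adjusted p = 0.68), and 0 members passed there (0.536% of all genes). In the 44 libraries with low olfactory bulb markers, a choice made after the values were seen, the difference was 0.17 (adjusted p = 1.2e-07). The highest Chd4 value, 7034 in an HT vehicle male, came from a library with an olfactory bulb sum of 30695. Markers of other cell types moved with genotype as well. Of 7 mural cell markers 5 were lower in HT and 0 higher (median -0.20 on the log2 scale), where 7.43% of all genes passed in either direction. Within sets 1 was lower (median -0.17). Their summed level ran from 4940 to 7185 (median 5980) in HT and from 5295 to 7991 (median 6565) in WT. Of 8 astrocyte markers 3 were lower and 0 higher (median -0.07), also 3 within sets, with sums of 100926 to 154367 in HT and 104779 to 160282 in WT. Of 6 choroid plexus markers 2 were lower (median -0.01). For oligodendrocyte precursors (median -0.13), excitatory neurons, olfactory bulb and meninges 1 marker each was lower. No marker of any list passed as higher. With the mural score as a covariate the Chd4 difference was 0.12 (adjusted p = 9.1e-04 by limma), and with the astrocyte score it was 0.12 (adjusted p = 6.7e-04). With each of the 13 marker scores alone it was 0.12 to 0.14. These fits were added after the values were seen. In bulk tissue, fewer cells of a type and less RNA per cell cannot be told apart.

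**Figure D2:**
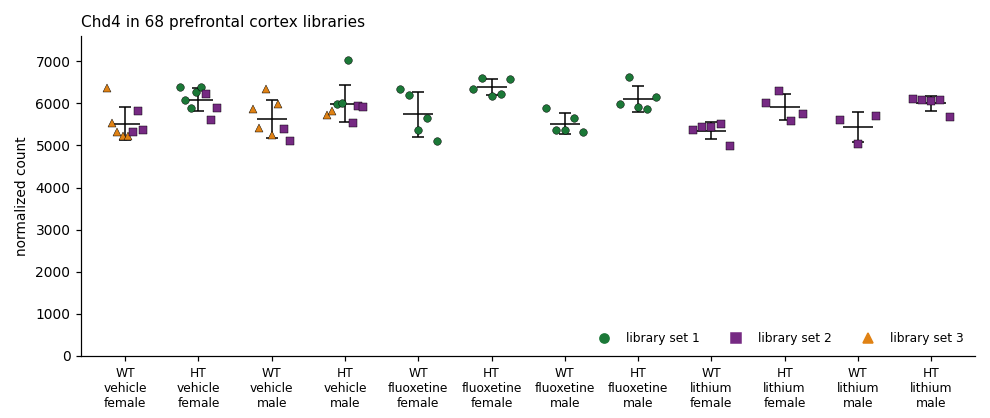
Normalized counts of Chd4 (linear axis from 0) in the 68 libraries by genotype, treatment and sex; points are libraries, colours and shapes the 3 library sets, and bars the group mean ± SD. The HT medians under vehicle, fluoxetine and lithium (5967, 6202 and 6061) lie above the WT medians (5379, 5508 and 5442), with overlapping ranges.

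The remaining 8 members did not pass between genotypes in any treatment. Adnp2, the paralogue, differed by 0.03 (SE 0.02, adjusted p = 0.48 by limma), with values of 735 to 881 in HT and 708 to 835 in WT. Among the HP1 genes, Cbx5 differed by 0.05 (adjusted p = 0.11), Cbx1 by -0.04 (adjusted p = 0.55) and Cbx3 by -0.04 (adjusted p = 0.62). Under vehicle Cbx1 differed by -0.14 (adjusted p = 0.053) and Cbx3 by -0.12 (adjusted p = 0.11), and within set 2 those values were -0.01 and 0.05. Pogz differed by -0.01 (adjusted p = 0.91). Of the BAF subunits, Smarcc2 differed by 0.06 (adjusted p = 0.069), Smarca4 by 0.01 (adjusted p = 0.89) and Arid1a by -0.01 (adjusted p = 0.92). Within library sets these 8 differences lay between -0.03 (Pogz) and 0.04 (Smarcc2), and 0 of them passed. The median difference of the 10 members was 0.02, and that of all genes 0.00.

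**Figure D3:**
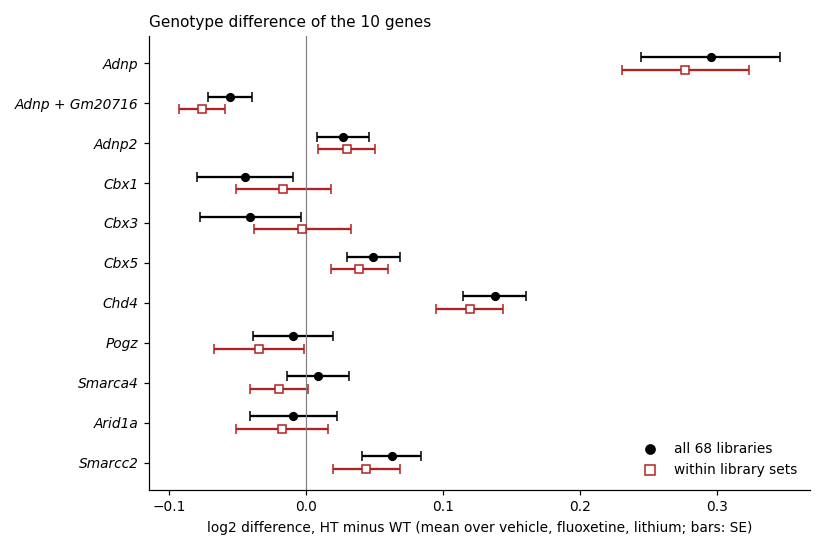
Log2 difference between HT and WT averaged over the 3 treatments (x axis) for each member and for the sum of Adnp and Gm20716 (y axis); circles use all 68 libraries, open squares compare libraries within sets, and bars are SE. Adnp at 0.30 and Chd4 at 0.14 lie to the right of 0, and the sum of Adnp and Gm20716 lies to the left at -0.055.

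Under fluoxetine 2 members passed in WT mice, both against vehicle libraries of other library sets. Adnp fell by 0.26 on the log2 scale (SE 0.08, adjusted p = 0.049 by limma), from a median of 1978 under vehicle to 1488. Smarca4, the BAF ATPase, rose by 0.13 (SE 0.04, adjusted p = 0.030), from a median of 4980 (range 4385 to 5522) to 5356 (range 4928 to 5894). Here 5.43% of all genes passed. No WT vehicle library belongs to set 1, so no comparison within a set was possible and treatment and set cannot be told apart. With the set as an additive term Adnp differed by -0.14 and Smarca4 by 0.03, and 0 members passed. The sum of Adnp and Gm20716 differed by 0.03 (adjusted p = 0.57). In HT mice 0 members passed under fluoxetine (1.22% of all genes), with 1 member at an unadjusted p under 0.05. That member was Adnp, at -0.25 (adjusted p = 0.11), or -0.14 within set 1 (adjusted p = 0.53), while Gm20716 rose by 0.34 (adjusted p = 0.014) and the sum differed by 0.04 (adjusted p = 0.49).

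Under lithium 3 members were lower in WT mice when all libraries were compared, where 36.1% of all genes passed. Smarcc2 fell by 0.16 (SE 0.04, adjusted p = 9.2e-04 by limma), from 7333 to 9440 (median 8120) under vehicle to 6050 to 8155 (median 7553) under lithium. Arid1a, the DNA-binding BAF subunit, fell by 0.20 (SE 0.06, adjusted p = 0.0050), from 3464 to 5684 (median 4422) to 3089 to 4205 (median 4004). Cbx1 fell by 0.16 (SE 0.06, adjusted p = 0.039), from 829 to 1391 (median 999) to 864 to 998 (median 927). The ranges overlapped for all 3. Within set 2 the differences were -0.16 for Smarcc2 (adjusted p = 0.13), -0.10 for Arid1a (adjusted p = 0.59) and 0.03 for Cbx1 (adjusted p = 0.94), and 0 members passed (0.664% of all genes). Without WT lithium male replicate 2, Smarcc2 differed by -0.10 (adjusted p = 0.044) and Arid1a by -0.14 (adjusted p = 0.077). Tissue content also varied: summed olfactory bulb markers ran from 2140 to 29768 in WT under vehicle and from 2340 to 7780 under lithium. In WT mice the median difference of these 8 markers was -1.11 for lithium and 0.60 for fluoxetine, and 0 of them passed in either. Counts in the libraries low in these markers are given at the end. In HT mice 0 members passed under lithium (1.52% of all genes), with 1 at an unadjusted p under 0.05, Cbx5 at 0.08 (adjusted p = 0.18). The lithium and the fluoxetine comparisons of a genotype share their vehicle libraries.

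Vehicle libraries of 1 genotype also differed between sets, where neither genotype nor treatment differed. In WT vehicle mice 4 of 10 members passed between sets 3 and 2, near the 42.4% of all genes, and in HT vehicle mice 0 of 10 passed between sets 1 and 2 (1.62% of all genes). The 4 WT differences, set 3 minus set 2, were -0.34 for Adnp, 0.33 for Cbx3, 0.28 for Cbx1 and -0.15 for Smarca4 on the log2 scale. In HT mice, set 1 minus set 2 was -0.21 for Adnp (adjusted p = 0.22 by limma) and 0.10 for Chd4 (adjusted p = 0.26). These values are descriptions, since the sets were found in the same libraries.

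**Figure D4:**
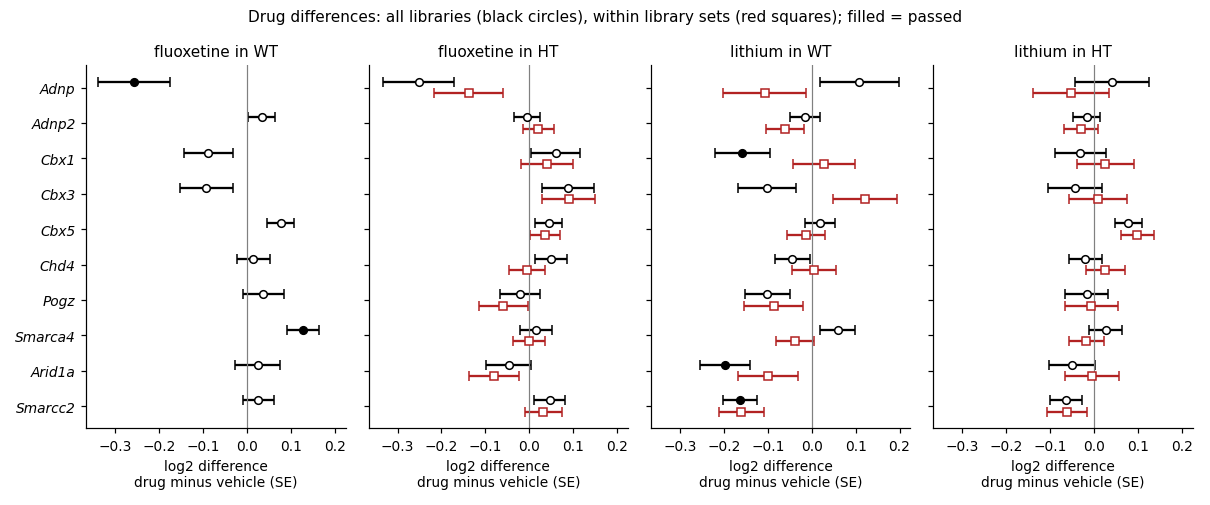
Log2 difference between drug and vehicle (x axes) for the 10 members (y axis) in WT and HT mice; black circles use all libraries, red squares compare libraries within a set, bars are SE, and filled symbols passed. The 5 filled circles are Adnp and Smarca4 under fluoxetine and Cbx1, Arid1a and Smarcc2 under lithium, all in WT, and no square is filled.

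The drug effects were not shown to differ between the genotypes for any member. For the difference of the fluoxetine effects 0 of 10 members passed (0% of all genes, by limma), with 2 members at an unadjusted p under 0.05. For lithium 0 of 10 passed (2.80% of all genes) and 0 had an unadjusted p under 0.05. The largest lithium value was 0.15 for Arid1a (adjusted p = 0.25). The genotype effect under vehicle did not pass as different between the sexes for any of the 10 members (0% of all genes), with 0 at an unadjusted p under 0.05. Between the sexes, 0 of 10 members passed (0.100% of all genes), and their differences lay between -0.02 and 0.04, with 0 at an unadjusted p under 0.05.

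Few genes of the further lists passed between genotypes once the treatments were averaged, 1 of 104 (0.962%) against 7.43% of all genes. Most of the lists hold chromatin genes, and the 104 also count VIP and PACAP signalling and microtubule end-binding genes. Of 20 NuRD and other CHD genes, 25 further BAF subunits, 30 genes of H3K9 methylation and heterochromatin, 11 genes of CTCF and cohesin, 5 of VIP and PACAP signalling, which acts upstream of Adnp, and 7 microtubule end-binding genes, 0 passed. Of 6 subunits of TFIIIC, the RNA polymerase III factor, 1 passed as higher: Gtf3c5, by 0.12 (SE 0.03, adjusted p = 0.010 by limma), and by 0.09 within library sets, where it did not pass (adjusted p = 0.073), with Gtf3c1 at 0.08 (adjusted p = 0.15). The smallest p in the other lists belonged to Gatad2a, a NuRD subunit, at 0.07 (adjusted p = 0.095), Smarcd1, a BAF subunit, at -0.05 (adjusted p = 0.089), and Cbx8, a Polycomb chromobox gene, at -0.11 (adjusted p = 0.083). Rad21 of cohesin stood at 0.04 (adjusted p = 0.36), Adcyap1, the PACAP gene, at -0.06 (adjusted p = 0.64) and Mapt, the gene of tau, at 0.04 (adjusted p = 0.41). Under vehicle, where HT and WT libraries lie mostly in different sets, 2 TFIIIC genes were higher and 11 genes of the other lists were lower, 12.5% of the 104 against 15.0% of all genes. The 11 were 3 NuRD and CHD genes (Mbd2, Gatad2b and Chd1), 2 BAF genes (Smarcc1 and Brd7), 4 heterochromatin genes (Lrif1, Fam208a, Suv39h2 and Smchd1), Pds5b and Mapre1. They differed by -0.25 to -0.09, and within set 2 by -0.14 to 0.01, where 0 of the 104 genes passed. Between genotypes, 0 of the 104 passed under fluoxetine (1.98% of all genes) and 1, as higher, under lithium (2.51%).

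Across libraries several pairs of members varied together. After the 12 group means were removed, the 45 pairs had a median correlation of 0.18 over 68 libraries, and 31 were positive. For pairs from a regular sample of all genes the median was -0.0014, and their share of positive pairs was not worked out. Chd4 with Pogz reached 0.78, Chd4 with Arid1a 0.76, Arid1a with Smarcc2 0.76 and Cbx1 with Cbx3 0.74. Cbx1 also stood at 0.53 with Pogz and 0.52 with Chd4. Smarca4 with Cbx3 was the lowest pair, at -0.55. With the means of group and set removed, the 6 pairs among Chd4, Pogz, Arid1a and Smarcc2 stood at 0.53 to 0.80 and Cbx1 with Cbx3 at 0.63. Other pairs lay in the same range: Cbx1 with Pogz at 0.66, Smarca4 with Arid1a at 0.63 and Smarca4 with Smarcc2 at 0.61. The pairs named were picked by these same values, so they do not mark separate groups. Smarca4 with Cbx3 was then -0.35, and Smarca4 with Cbx1 went from -0.27 to 0.04. All pairs rest on the same libraries, which differ in depth, tissue make-up and set, and the values are a description. Adnp correlated at 0.39 with Smarca4, 0.30 with Arid1a, -0.34 with Cbx3 and -0.26 with Cbx1. For the sum of Adnp and Gm20716 the values were 0.10, 0.29, 0.38 and 0.27, with Pogz the highest at 0.47. With set means removed as well, Cbx3 stood at -0.21 with Adnp and 0.58 with the sum, and Cbx1 at -0.05 and 0.39.

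**Figure D5:**
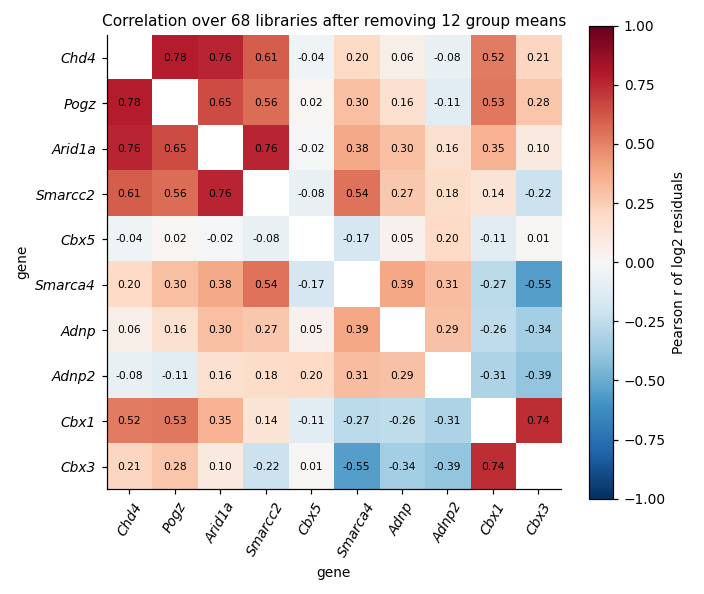
Pearson correlation of log2 values between members over 68 libraries after the 12 group means were removed (colour scale from -1 to 1, values printed). Pairs among Chd4, Pogz, Arid1a and Smarcc2 reach 0.78. Cbx1 stands at 0.74 with Cbx3, 0.53 with Pogz and 0.52 with Chd4.

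The 5 genes whose residuals followed Adnp most closely were Grin3a (0.61), Glg1 (0.61), Depdc5 (0.61), Arfgef2 (0.59) and Dhx8 (0.59). With the set means removed as well, these 5 correlations were 0.40 to 0.50, and of the 5 only Dhx8 stayed among the closest. The closest were then Adarb1 (0.59), Sipa1l2 (0.57), Dcp1a (0.52), Pcdhga9 (0.51) and Dhx8 (0.50). With only the group means removed, those closest to the sum of Adnp and Gm20716 were Klhl24 (0.69), Kcnd2 (0.68), Scamp1 (0.68), Rsbn1l (0.67) and Tmx4 (0.67). Of these, 0 were among the genes closest to Adnp. With Adnp alone, the 5 genes closest to the sum had correlations of -0.06 to 0.20.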

How the data were processed

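RNA from mouse prefrontal cortex was sequenced in 68 libraries, from stranded poly(A) libraries per the labels' protocols. The authors deposited 1 table of signal values: counts scaled by a size factor, the same for every gene of a library. Per the submitters' processing notes the tools included DESeq2 1.19.11, Salmon 0.11.2 and R 3.6.0, with no roles given, and the build was GRCm38. Which annotation release was used, and how shared reads were assigned, is not given in the sources used here. Whole reads were recovered for 100% of values within 0.01, and numbered 22.4M to 37.5M per library (M for mega).

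The test was limma 3.58.1 in R 4.3.3 on log2(value + 1), with a trend and robust shrinkage, over genes with a mean of at least 5 (17922 tested, 166 left out). Benjamini-Hochberg adjustment ran over all genes tested. A fold change on this scale understates the change of low genes. The plan named limma for normalized counts and edgeR for raw counts, and limma was kept because the deposited values are normalized. As alternatives, edgeR 4.0.16 and DESeq2 1.42.0 were run on the recovered reads. Library sets came from average linkage of gene-centred log2 levels of 361 pseudogenes, cut at a given number of 3 sets. Within-set values average the strata of 1 treatment, sex and set that hold both genotypes. Data were simulated for the genotype comparison under vehicle (17922 genes). There 42 of 50 genes changed 1.25-fold and 49 of 50 changed 1.5-fold were recovered, with 13 false calls. The simulated libraries held no library sets, and in the real comparison HT and WT lie mostly in different sets. The simulation therefore does not give the error rate of the real comparison. Python 3.11.15 and matplotlib 3.10.9 drew the figures.

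Genes were placed with GENCODE vM21 on GRCm38 (18077 matched), and promoters came from RefSeq. The members and the gene lists were chosen with earlier results of these data known. Named genes were all 10 members, the passing genes of each further list over all treatments, and the 5 most correlated with Adnp. Per list, up to 4 passing genes were named, or the 2 with the smallest p. Fewer are printed where they add nothing. Gm20716, Dpm1, the genes named under single treatments, and the genes most like the sum were chosen after their values were seen. The same holds for the genes most like Adnp with set means removed. Replicate numbers did not pair the libraries.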

Additional observations from a re-analysis of the deposited data

Results flagged for a closer look

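In 132 combinations of gene and group (12 genes or sums, groups of 4 to 8 libraries), 5 had 1 library farther from its neighbour than Dixon's limit, where chance flags about 1 in 20. Adnp stood at 1944 in WT fluoxetine female replicate 5, with the next library at 1502. Chd4 stood at 7034 in HT vehicle male replicate 5, with the next at 6016. It stood at 5671 in HT lithium male replicate 5, below the next at 6061. In WT lithium female replicate 5 both Chd4, at 4993, and Arid1a, at 3089, were the lowest of the group, with the next libraries at 5365 and 3944.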

How the results depend on the processing

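Over all treatments Adnp and Chd4 passed with every scaling, filter, pseudocount, tool, set or block alternative run, and 4 members passed with equal totals. With 13 marker scores together as covariates the Adnp difference was 0.55, and with 1 score at a time, added after seeing the data, 0.28 to 0.33. Summing Adnp with Gm20716 turned it to -0.055 over all treatments, -0.037 under vehicle, -0.022 under fluoxetine and -0.11 under lithium, and to 0.028 for fluoxetine in WT; with Dpm1 added it was -0.017 over all treatments and -0.016 under vehicle. With either sum 1 member passed under vehicle, 1 under fluoxetine and 1 for fluoxetine in WT. With the sum of 2 genes 1 passed under lithium, and with the sum of 3 genes 1 passed over all treatments.

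Counts of members passing otherwise moved as follows, and the cause was not tested. Genotype under vehicle gave 2 in all libraries, 0 within set 2, 0 in males of set 3 (Adnp 0.41, Chd4 0.00), and 1 with the set as a term, with marker scores, with its own groups only, or with libraries low in olfactory bulb markers. Genotype under fluoxetine gave 1 with equal totals and 1 in the libraries low in bulb markers. Genotype under lithium gave 1 within sets, with the set as a term and with DESeq2, 2 with its own groups only and in the libraries low in bulb markers, and 4 with marker scores. Fluoxetine in WT gave 1 with TMM scaling and 0 with its own groups only, with the set as a term, with marker scores and in the libraries low in bulb markers. Lithium in WT gave 0 within set 2 and 1 with its own groups only, with the set as a term and in the libraries low in bulb markers; Cbx1 turned to 0.028 within set 2 and to 0.011 with the set as a term.

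Leaving out 1 library at a time gave 2 to 3 members over all treatments, 2 to 4 under vehicle, 0 to 2 under fluoxetine, 0 to 2 under lithium, 0 to 2 for fluoxetine in WT and 1 to 3 for lithium in WT. With a replicate block the counts were 2 over all treatments, 3 under vehicle, 2 under fluoxetine, 1 under lithium, 3 for fluoxetine in WT and 5 for lithium in WT, and 0 in the other comparisons. The labels do not state what libraries of the same number share. Over 313 pairs of libraries with the same number in different groups, the median correlation of residuals was -0.01, and 72 pairs exceeded 0.1. In the vehicle groups the numbers followed the sets, with replicates 1 to 5 in set 1 or 3 and higher numbers in set 2. The within-set comparison could not be made for fluoxetine in WT or for the difference of the fluoxetine effects. Counting error came to 54.3% of the residual variance of Adnp2, the member with the fewest reads, and to 2.50 to 10.5% for the other 9. The lowest, 2.50% for Adnp, treats its row as plain counts. It leaves out any error in assigning the reads shared with Gm20716.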
